A study of Homo sapiens with 12 samples.

Results

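Deleting the double-stranded RNA-binding domain (dsRBD) of DICER changed the miRNA profile of HEK293T and HCT116 cells in ways that differed between the lines for many miRNAs. The quantity described here is the line difference. It is the log2 ratio of ΔdsRBD over WT in HEK293T minus the log2 ratio of ΔdsRBD over WT in HCT116, so a positive value means that the ratio was higher in HEK293T and a negative value that it was lower there. It was computed from 8 of the 12 libraries of the series for human miRNA names listed for both lines, 1494 of the 1971 names listed for either. Of these 1494, 509 had enough reads within each line to be tested, and they held 97.6% to 99.6% of the miRNA reads of a library. Another 80 names had enough reads in HEK293T alone, 163 in HCT116 alone and 742 in neither line, and 3 of the 742 had no read in any of the 8 libraries.

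The libraries were made by AQ-seq, a small RNA protocol designed to reduce ligation bias, from 100 µg of total RNA each. The 4 groups were HEK293T cells rescued with DICER ΔdsRBD, HEK293T cells rescued with DICER WT, HCT116 cells rescued with DICER ΔdsRBD and HCT116 cells rescued with DICER WT, with 2 libraries in each. The other 4 libraries, from cells with DICER AA, are not described here. HEK293T is a human embryonic kidney line and HCT116 a human colorectal carcinoma line. The samples are called rescues, so the WT cells also carry a DICER that was put back, and all 4 groups share that step. The sources used here do not say how the rescue DICER was expressed, how much of it each line made, or whether each line was 1 clone. Replicate numbers in the labels are not tied to separate cultures, and p-values therefore reflect only the spread among these libraries, which may be technical.

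DICER cuts the loop off a hairpin precursor and leaves a duplex of its 5p and 3p strands, 1 of which is usually kept by an Argonaute protein while the other is degraded. The dsRBD lies at the C terminus of DICER, next to the paired RNase III domains that make the cuts, and contacts the stem of the precursor. A miRNA recognises its targets mainly through its seed, the bases near its 5′ end, so 5p and 3p strands of a hairpin have different targets. A shift of a cut changes the seed only of a strand whose 5′ end it moves.

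The miRNAs on which the results turn are printed here 5′ to 3′ from RefSeq (GRCh38.p14), with the seed (bases 2 to 8) in capitals. The first set has the largest positive line differences among abundant names and the second the largest negative ones, and the third holds relatives and partner strands that they are compared with.
miR-27a-3p: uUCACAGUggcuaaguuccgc
miR-125b-5p: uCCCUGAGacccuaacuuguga
miR-33b-5p: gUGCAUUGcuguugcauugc
miR-193a-3p: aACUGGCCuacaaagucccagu
miR-362-5p: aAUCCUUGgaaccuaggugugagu
miR-27b-3p: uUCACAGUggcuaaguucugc
miR-19a-5p: aGUUUUGCauaguugcacuaca
miR-18a-3p: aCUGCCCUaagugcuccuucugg

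miR-340-5p: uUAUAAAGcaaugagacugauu
miR-93-5p: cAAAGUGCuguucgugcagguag
miR-106b-5p: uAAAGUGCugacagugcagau
miR-21-5p: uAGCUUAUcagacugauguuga
miR-181c-5p: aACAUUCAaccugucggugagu
miR-450a-5p: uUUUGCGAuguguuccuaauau
let-7e-5p: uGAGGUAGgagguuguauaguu
miR-15a-5p: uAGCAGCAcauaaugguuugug

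miR-27a-5p: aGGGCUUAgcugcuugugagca
miR-27b-5p: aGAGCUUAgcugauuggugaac
miR-15b-5p: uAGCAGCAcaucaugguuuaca
miR-33a-5p: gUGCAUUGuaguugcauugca
miR-20a-5p: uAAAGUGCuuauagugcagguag
miR-181a-5p: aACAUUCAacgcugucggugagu
miR-25-5p: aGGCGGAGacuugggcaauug
miR-625-5p: aGGGGGAAaguucuauagucc
miR-625-3p: gACUAUAGaacuuucccccuca

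The line difference was called for 257 of the 509 names, which is 50.5%, by edgeR's quasi-likelihood test with Benjamini-Hochberg adjustment over all 509 (adjusted p under 0.05). Of these, 130 names (25.5%) were higher in HEK293T and 127 (25.0%) lower. Among the 201 names with a mean of at least 100 CPM (counts scaled to the same library size) in each line, 126 were called (62.7%), with 59 higher (29.4%) and 67 lower (33.3%). For 360 of the 509 names (70.7%), the 4 ratios that can be formed between ΔdsRBD and WT libraries in HEK293T did not overlap with the 4 in HCT116. For 55 names (10.8%), the 95% interval of the line difference lay within 1 log2 unit of 0 on both sides.

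By the signs of the fitted ratios, called differences were of size in 166 names and of direction in the other 91. Of the 257 names, 71 were below WT in both lines and further below in HEK293T, 33 were below in both and further below in HCT116, 52 were above WT in both and further above in HEK293T, and 10 were above in both and further above in HCT116. Of these 166, 108 were called within both lines and 58 within 1 line. The 91 with opposite signs had 45 above WT in HEK293T and below in HCT116, and 46 the other way round. In 26 of these (5.11% of the 509) the ratio was also called within each line in opposite directions. Within the lines, 171 names were called above WT (33.6%) and 242 below (47.5%) in HEK293T, and 123 above (24.2%) and 212 below (41.7%) in HCT116. The effects of the lines, which share no library, correlated across the 509 names with a Pearson r of 0.727 and a Spearman rho of 0.715, and 77.2% of names had the same sign. Names that share a library and a hairpin are not independent, so these values describe the profile only. The effects had an SD of 2.20 in HEK293T and 1.76 in HCT116.

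**Figure D1:**
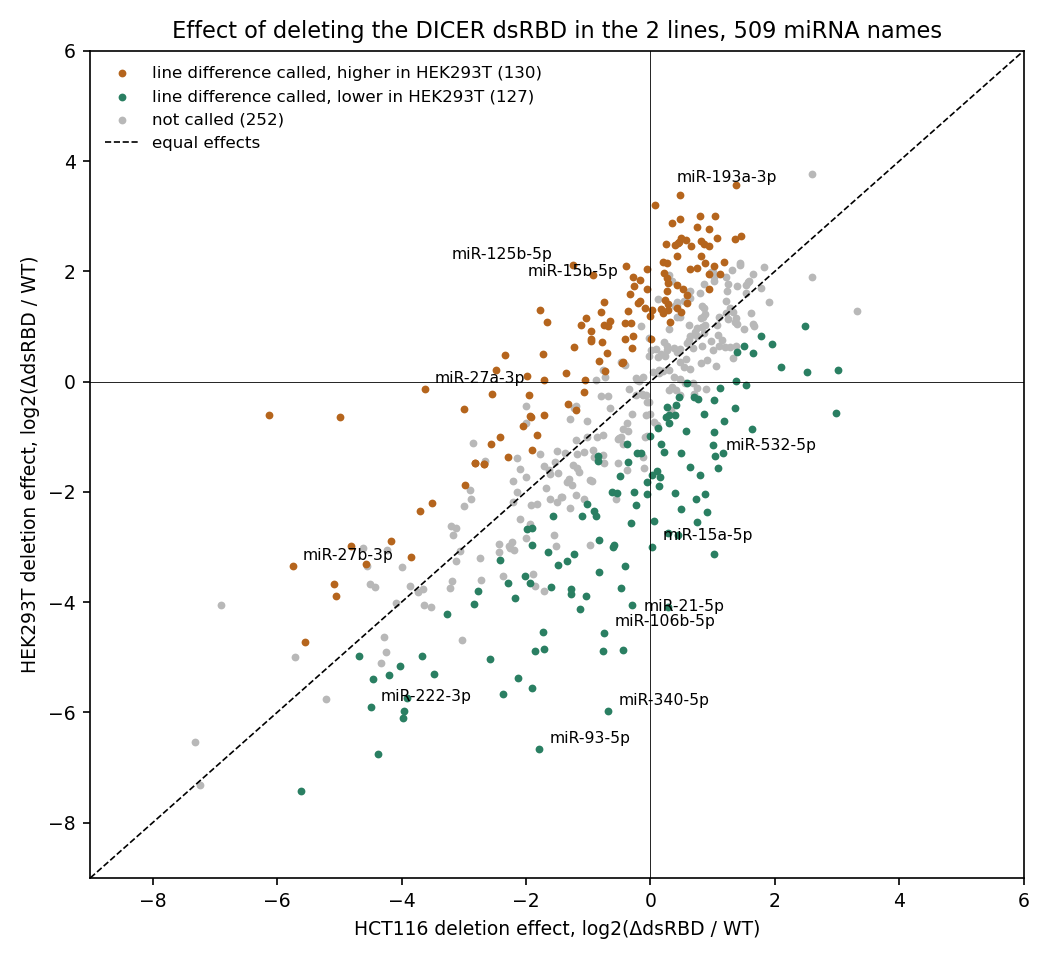
Deletion effect of each of the 509 miRNA names in HEK293T (vertical axis, log2 ratio of ΔdsRBD over WT) against the effect in HCT116 (horizontal axis), 1 point per name, coloured by the call of the line difference. The 130 names called higher lie above the dashed line of equal effects and the 127 called lower lie below it, and miR-93-5p is at −6.67 in HEK293T and −1.79 in HCT116.

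Where 0 lies on the scale of the line difference depends on how the libraries are scaled. The values here use trimmed mean of M-values (TMM) factors over the miRNAs, with which the median line difference of the 509 names was −0.04. The median was −0.40 with library totals alone, where 87 names were called higher and 180 lower, and 0.36 with size factors from the added spike-in RNAs, where 164 were higher and 88 lower. No call of the line difference reversed its direction under any of these scalings. The direction within a line does depend on the scaling. Spike-in size factors moved the median effect by −1.13 in HEK293T and −1.46 in HCT116, and on that scale 179 of the 257 called names were below WT in both lines, 1 was above in both, 67 were above in HEK293T and below in HCT116, and 10 the other way round. Of the 26 names with opposite calls, 5 kept opposite signs. Statements that a name was above or below WT within a line are on the TMM scale unless another is named. There were 28.2 ± 1.33 miRNA reads per spike-in read in HEK293T ΔdsRBD libraries and 81.7 ± 1.22 in HEK293T WT libraries, with 64.1 ± 0.735 in HCT116 ΔdsRBD and 320.1 ± 65.9 in HCT116 WT libraries (SD, n = 2 each). The ΔdsRBD libraries thus had 34.5% of the WT value in HEK293T and 20.3% in HCT116, a line difference of 0.77 ± 0.22 (SE on the log2 scale, no test). Read from single spike-ins, this value ran from −1.21 to 1.81 and was above 0 for 22 of the 30.

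The spike-ins are added RNAs that no cell makes, and their own line difference was tested in the same way. Scaled among themselves, 10 of the 30 were called for the line difference (33.3%, 6 higher and 4 lower), and their values ran from −1.10 to 1.91. Within the lines, 16 of the 30 were called between ΔdsRBD and WT in HEK293T and 0 in HCT116 by edgeR, while 14 had an unadjusted p under 0.05 for the line difference. The largest lay 1.99 from the spike-in median, and the part of library preparation in the miRNA results was not tested. Tested against that size in place of 0, with edgeR's glmTreat, 4 miRNA names were called higher and 22 lower. The 4 were miR-27a-3p, miR-125b-5p, miR-574-3p and miR-1226-3p, and the 22 included miR-340-5p, miR-93-5p, miR-106b-5p, miR-21-5p, miR-21-3p and miR-15a-5p.

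Over all 509 names, miR-574-3p and the mirtron strand miR-1226-3p had the largest positive line differences, and they are named after their values were seen, since neither reached 100 CPM in both lines. miR-574-3p had 34.7 and 50.3 CPM in HEK293T ΔdsRBD, 67.7 and 63.1 in HEK293T WT, 2.64 and 1.12 in HCT116 ΔdsRBD and 215 and 152 CPM in HCT116 WT libraries. Both HCT116 ΔdsRBD libraries, with 3 and 2 reads, were far below the other 6, and the line difference was 5.53 ± 0.71 (adjusted p = 1.68e-05). miR-1226-3p had 1 and 0 reads in HCT116 ΔdsRBD, so its line difference of 4.35 ± 1.66 (adjusted p = 0.000748) rests on a group near 0.

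Among abundant names, meaning those with a mean of at least 100 CPM in each line, the largest positive line difference was that of miR-27a-3p, a regulator of lipid metabolism and adipogenesis made from the MIR23A, MIR27A and MIR24-2 cluster on chromosome 19. It had 1155 and 1149.9 CPM in HEK293T ΔdsRBD and 1411 and 1125 CPM in HEK293T WT libraries, with 1517 and 1798 CPM in HCT116 ΔdsRBD and 21053 and 20014 CPM in HCT116 WT libraries. The HCT116 WT libraries stood far above the other 6, and the HEK293T ΔdsRBD and WT values overlapped. The line difference was 3.49 ± 0.22 (SE), a ratio of ratios of 11.3, with a 95% interval of 2.997 to 3.99 (adjusted p = 2.33e-06). Its relative miR-27b-3p, which differs from it at 1 of 21 bases and has the same seed, comes from an intron of C9orf3 on chromosome 9. It had 418 and 475 CPM in HEK293T ΔdsRBD, 4789 and 4316 in HEK293T WT, 138 and 162 in HCT116 ΔdsRBD and 8444 and 7831 CPM in HCT116 WT libraries. Here ΔdsRBD was far below WT in both lines, further in HCT116, and the line difference was 2.40 ± 0.22 (adjusted p = 2.18e-05).

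miR-125b-5p, the mammalian counterpart of the worm timing miRNA lin-4, moved in opposite directions. It had 8079 and 9538 CPM in HEK293T ΔdsRBD and 1979 and 2089 CPM in HEK293T WT libraries, with 684 and 1092 CPM in HCT116 ΔdsRBD and 2132 and 2091 CPM in HCT116 WT libraries. No ΔdsRBD library overlapped with the WT libraries of its line, and the ratios were 2.11 in HEK293T and −1.25 in HCT116 on the log2 scale, with opposite signs on the spike-in scale too. The line difference was 3.36 ± 0.29 (adjusted p = 1.68e-05). It is made from 2 loci, which its reads cannot separate. The strand of the related miR-125a with the same seed had a line difference of 1.62 ± 0.35 (adjusted p = 0.00324).

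miR-33b-5p lies in an intron of SREBF1, the gene of a transcription factor of lipid synthesis, and represses cholesterol export. It had 2369 and 2113 CPM in HEK293T ΔdsRBD and 304 and 179.7 CPM in HEK293T WT libraries, with 798 and 1576 CPM in HCT116 ΔdsRBD and 1203 and 1054 CPM in HCT116 WT libraries. HEK293T ΔdsRBD was above HEK293T WT in both libraries, while the HCT116 ΔdsRBD libraries lay on either side of HCT116 WT, and the line difference was 3.13 ± 0.44 (adjusted p = 0.000281). Its relative miR-33a-5p, which is hosted by SREBF2 and matches it at 18 of 20 bases, had 4739 and 5066 CPM in HEK293T ΔdsRBD, 2008 and 1259 in HEK293T WT, 1072 and 2586 in HCT116 ΔdsRBD and 2368 and 2215 CPM in HCT116 WT libraries. The pattern across the groups was the same in kind and smaller, with a line difference of 1.91 ± 0.48 (adjusted p = 0.00829). All 4 tested strands of the miR-33 family were called higher, with a median of 1.89, against 25.5% of all names, and all 4 were called under each of the 5 other scalings.

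miR-193a-3p, which represses growth-promoting genes in several tumour types, had 18784 and 20190.0 CPM in HEK293T ΔdsRBD and 2151 and 1570.4 CPM in HEK293T WT libraries, with 410.2 and 786 CPM in HCT116 ΔdsRBD and 436 and 423 CPM in HCT116 WT libraries. Both HEK293T ΔdsRBD libraries were far above every other library, and the HCT116 groups overlapped. The line difference was 2.91 ± 0.37 (adjusted p = 0.000148). miR-362-5p, from a cluster in introns of the chloride channel gene CLCN5, had 853 and 811 CPM in HEK293T ΔdsRBD, 135 and 92.1 in HEK293T WT, 232 and 283 in HCT116 ΔdsRBD and 223 and 181 CPM in HCT116 WT libraries. It was high in HEK293T ΔdsRBD alone, with a line difference of 2.51 ± 0.30 (adjusted p = 9.42e-05).

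miR-19a-5p and miR-18a-3p are the less abundant strands of hairpins in the miR-17-92 cluster, a growth-promoting cluster transcribed as MIR17HG on chromosome 13. The level of miR-19a-5p was 668 and 828 CPM in HEK293T ΔdsRBD and 96.5 and 89.0 CPM in HEK293T WT libraries, with 138 and 347 CPM in HCT116 ΔdsRBD and 142 and 139.6 CPM in HCT116 WT libraries. HEK293T ΔdsRBD was above HEK293T WT, whereas 1 HCT116 ΔdsRBD library was at the level of HCT116 WT and the other above it, and the line difference was 2.20 ± 0.47 (adjusted p = 0.00305). For miR-18a-3p the values were 718 and 748 CPM in HEK293T ΔdsRBD, 384 and 337 in HEK293T WT, 104 and 142 in HCT116 ΔdsRBD and 290.5 and 246 CPM in HCT116 WT libraries. ΔdsRBD was above WT in HEK293T and below WT in HCT116 with no overlap, while on the spike-in scale the ratios were −0.15 in HEK293T and −2.59 in HCT116. Its line difference was 2.13 ± 0.27 (adjusted p = 0.00013).

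**Figure D2:**
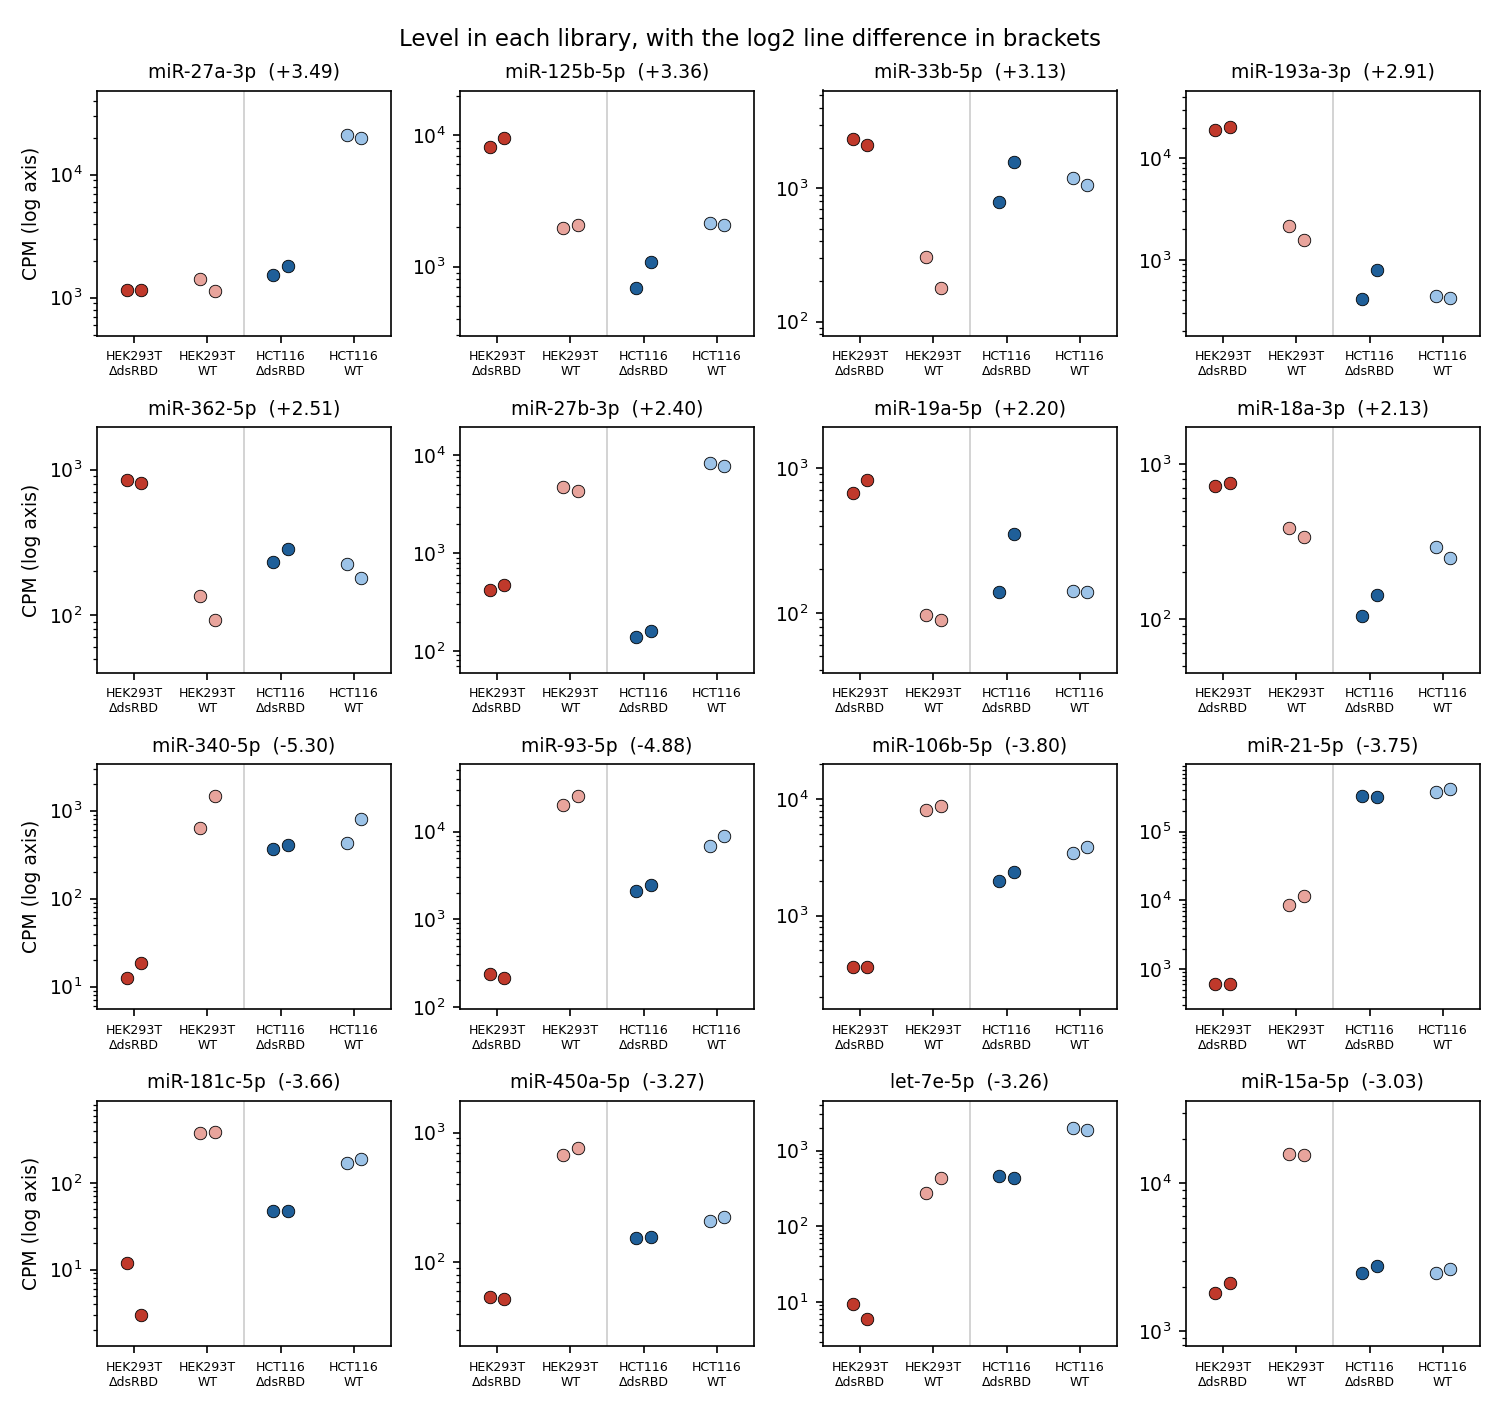
Level of the 16 abundant names with the largest line differences in each of the 8 libraries, as TMM-scaled CPM on a log axis, 1 point per library, for HEK293T ΔdsRBD, HEK293T WT, HCT116 ΔdsRBD and HCT116 WT. In the lower 8 panels, where the line difference is negative, the HEK293T ΔdsRBD points are the lowest of the panel, as for miR-93-5p at 236 and 216 CPM.

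At the other end, miR-93-5p and miR-106b-5p were among the largest negative differences. Both come from a cluster hosted by the replication licensing gene MCM7 on chromosome 7, share a seed with miR-17-5p and are known repressors of the cell cycle inhibitor CDKN1A. miR-93-5p had 236 and 216 CPM in HEK293T ΔdsRBD and 20372 and 25743 CPM in HEK293T WT libraries, with 2092 and 2449.5 CPM in HCT116 ΔdsRBD and 6786 and 8918 CPM in HCT116 WT libraries. ΔdsRBD was below WT in both lines, without overlap, and the line difference was −4.88 ± 0.26 (adjusted p = 1.12e-06). miR-106b-5p had 358 and 358 CPM in HEK293T ΔdsRBD and 8054 and 8782 CPM in HEK293T WT libraries, with 1986 and 2377 CPM in HCT116 ΔdsRBD and 3459 and 3869.8 CPM in HCT116 WT libraries. The ΔdsRBD over WT ratios were −4.55 in HEK293T and −0.75 in HCT116 on the log2 scale, and the line difference was −3.80 ± 0.22 (adjusted p = 1.22e-06).

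The other names with the seed of miR-93-5p and miR-106b-5p did not pass the test. miR-20a-5p matches miR-106b-5p at 18 of 21 bases and had 35189 and 34385 CPM in HEK293T ΔdsRBD, 49055 and 55485 in HEK293T WT, 6348 and 7912 in HCT116 ΔdsRBD and 8085 and 9350.0 CPM in HCT116 WT libraries, with a line difference of −0.30 ± 0.21 (interval −0.76 to 0.17, adjusted p = 0.253). For miR-17-5p the line difference was −0.12 ± 0.19 (adjusted p = 0.611) and for miR-106a-5p −0.49 ± 0.25 (adjusted p = 0.124). miR-20a-5p was called lower with library totals alone.

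miR-21-5p, an abundant miRNA of many tumours that represses PDCD4, lies in an exon of VMP1 on chromosome 17. It had 601 and 606 CPM in HEK293T ΔdsRBD and 8625 and 11463 CPM in HEK293T WT libraries, with 326357 and 313861 CPM in HCT116 ΔdsRBD and 371030.0 and 418372 CPM in HCT116 WT libraries. It was the most abundant name in HCT116, where ΔdsRBD lay below WT by −0.30 on the log2 scale and was not called, and it was far lower in HEK293T ΔdsRBD than in HEK293T WT. The line difference was −3.75 ± 0.20, a ratio of ratios of 13.5, with an interval of −4.20 to −3.30 (adjusted p = 1.12e-06). Its partner strand miR-21-3p had a line difference of −4.36 ± 0.31 (adjusted p = 2.13e-06), on 9 and 12 reads in the HEK293T ΔdsRBD libraries.

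miR-340-5p, from an intron of RNF130 on chromosome 5, had the most negative line difference of all 509 names. It had 12.7 and 18.8 CPM in HEK293T ΔdsRBD and 631 and 1479 CPM in HEK293T WT libraries, with 365 and 407 CPM in HCT116 ΔdsRBD and 428 and 812 CPM in HCT116 WT libraries. The HEK293T ΔdsRBD values rest on 15 and 25 reads and lay below all others, and the HEK293T WT libraries differed from each other by more than the HCT116 groups did. The line difference was −5.30 ± 0.66 (adjusted p = 9.17e-05). Its partner miR-340-3p had a line difference of −1.51 ± 0.40 (adjusted p = 0.00591). For miR-224-5p, from an exon of GABRE on the X chromosome, the line difference was −4.12 ± 0.60 (adjusted p = 3.79e-05), with 1 and 5 reads in HEK293T ΔdsRBD.

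miR-15a-5p, which represses BCL2 and is often deleted in chronic lymphocytic leukaemia, fell in HEK293T and was not called in HCT116. It had 1821 and 2122 CPM in HEK293T ΔdsRBD and 15810.0 and 15619 CPM in HEK293T WT libraries, with 2473 and 2776 CPM in HCT116 ΔdsRBD and 2492 and 2642 CPM in HCT116 WT libraries. The HCT116 groups overlapped, the HEK293T groups did not, and the line difference was −3.03 ± 0.20 (adjusted p = 2.94e-06). miR-15b-5p has the same seed and the same base at 18 of 22 positions, and it went the other way. It had 32087 and 38439.9 CPM in HEK293T ΔdsRBD, 9362 and 10299 in HEK293T WT, 5361 and 7104 in HCT116 ΔdsRBD and 6799 and 7188 CPM in HCT116 WT libraries. It was above WT in HEK293T and overlapped with WT in HCT116, with a line difference of 2.01 ± 0.23 (adjusted p = 8.96e-05). The partner strands followed their hairpins, with −1.72 ± 0.33 for miR-15a-3p (adjusted p = 0.00154) and 1.09 ± 0.24 for miR-15b-3p (adjusted p = 0.00382).

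The other abundant names at the negative end were miR-450a-5p, miR-181c-5p and let-7e-5p. miR-450a-5p had 54.2 and 51.8 CPM in HEK293T ΔdsRBD, 671 and 765 in HEK293T WT, 155 and 156 in HCT116 ΔdsRBD and 207 and 224 CPM in HCT116 WT libraries. Both lines had less of it with the deletion, HEK293T more so, with a line difference of −3.27 ± 0.24 (adjusted p = 4.85e-06). miR-181c-5p, whose family tunes T cell receptor signalling, had 11.8 and 3.004 CPM in HEK293T ΔdsRBD, 374 and 387 in HEK293T WT, 47.5 and 47.0 in HCT116 ΔdsRBD and 169 and 188 CPM in HCT116 WT libraries. It was below WT in both lines without overlap, with 14 and 4 reads in HEK293T ΔdsRBD and a line difference of −3.66 ± 0.49 (adjusted p = 9.54e-05). let-7e-5p had 9.31 and 6.01 CPM in HEK293T ΔdsRBD, 279 and 428 in HEK293T WT, 458 and 431 in HCT116 ΔdsRBD and 1978 and 1894 CPM in HCT116 WT libraries. The HEK293T ΔdsRBD libraries, with 11 and 8 reads, were again the lowest, and the line difference was −3.26 ± 0.42 (adjusted p = 8.3e-05).

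Among names called in opposite directions within the lines, miR-181a-3p had 57.6 and 60.1 CPM in HEK293T ΔdsRBD and 195 and 295 CPM in HEK293T WT libraries, with 745 and 810.4 CPM in HCT116 ΔdsRBD and 412 and 439 CPM in HCT116 WT libraries. On the TMM scale it was below WT in HEK293T and above WT in HCT116, while on the spike-in scale it was below WT in both, at −3.18 in HEK293T and −0.63 in HCT116. The line difference was −2.91 ± 0.30 (adjusted p = 3.79e-05). The same opposite pattern was called for miR-148a-5p with −2.67 ± 0.24, miR-450b-5p with −2.50 ± 0.29 and miR-181a-2-3p with −2.46 ± 0.29 (adjusted p = 1.76e-05, 8.96e-05 and 9.17e-05 by edgeR). It was also called for miR-532-5p, which had 338 and 361 CPM in HEK293T ΔdsRBD, 916 and 876 in HEK293T WT, 1345 and 1330.3 in HCT116 ΔdsRBD and 673 and 625 CPM in HCT116 WT libraries. The line difference of miR-532-5p was −2.40 ± 0.21 (adjusted p = 1.68e-05), opposite in sign to that of miR-362-5p from the same CLCN5 cluster. On the spike-in scale, all 5 of these names were below WT in both lines, further in HEK293T.

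The 6 names with the highest mean over the lines' means were miR-21-5p, miR-19b-3p, miR-92a-3p, miR-16-5p, miR-10a-5p and miR-222-3p. The lines differ in these levels, and miR-21-5p and miR-222-3p rank here through HCT116, with means of 5324 and 3019 CPM in HEK293T. The means of miR-19b-3p, miR-92a-3p, miR-16-5p and miR-10a-5p were higher in HEK293T. For miR-92a-3p they were 111601 CPM in HEK293T and 7722 CPM in HCT116, and for miR-10a-5p 62203 and 10558 CPM. miR-19b-3p, from the miR-17-92 cluster and its paralog, had 236792 and 243658 CPM in HEK293T ΔdsRBD and 62847 and 59319 CPM in HEK293T WT libraries, with 10174 and 12949 CPM in HCT116 ΔdsRBD and 9223 and 10742 CPM in HCT116 WT libraries. It was far above WT in HEK293T ΔdsRBD, where it was the most abundant name, and overlapped between the HCT116 groups, with a line difference of 1.76 ± 0.20 (adjusted p = 8.3e-05). miR-222-3p, a repressor of the cell cycle inhibitor CDKN1B, had 104 and 92.4 CPM in HEK293T ΔdsRBD, 5915 and 5965 in HEK293T WT, 4677 and 4160.3 in HCT116 ΔdsRBD and 96572 and 102919 CPM in HCT116 WT libraries. It was far below WT in both lines and further in HEK293T, with a line difference of −1.41 ± 0.19 (adjusted p = 0.000169). miR-16-5p had 32125 and 31678 CPM in HEK293T ΔdsRBD, 84629 and 89278 in HEK293T WT, 10620.4 and 11991 in HCT116 ΔdsRBD and 19692 and 21059 CPM in HCT116 WT libraries. ΔdsRBD was below WT in both lines, and the line difference was small beside those above. miR-10a-5p had a line difference of −0.98 ± 0.20 (adjusted p = 0.00217) and miR-16-5p one of −0.60 ± 0.17 (adjusted p = 0.0156). Neither was called with either spike-in scaling, and the call of miR-16-5p was also lost with upper-quartile factors and without any 1 of 5 libraries. miR-92a-3p did not pass the test, at −0.21 ± 0.22 (interval −0.69 to 0.28, adjusted p = 0.455).

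For other names the deletion effect was large and the lines were close. miR-151a-3p had 179 and 165 CPM in HEK293T ΔdsRBD and 2581 and 3141 CPM in HEK293T WT libraries, with 517 and 426 CPM in HCT116 ΔdsRBD and 5852 and 5861 CPM in HCT116 WT libraries. It was lower with the deletion in both lines, and its line difference was −0.41 ± 0.24 with an interval of −0.94 to 0.11 (adjusted p = 0.159). It was called lower, at −0.82, with library totals alone. miR-140-5p, a miRNA of cartilage development, had 83.8 and 83.4 CPM in HEK293T ΔdsRBD, 1055 and 1144 in HEK293T WT, 36.1 and 37.5 in HCT116 ΔdsRBD and 516 and 582 CPM in HCT116 WT libraries. Its ratios were −3.70 in HEK293T and −3.86 in HCT116 and the interval of the line difference ran from −0.38 to 0.70. The intervals of miR-652-3p and miR-126-3p, a miRNA of endothelial cells, ran from −0.18 to 0.96 and from −0.07 to 0.99, and both were below WT in both lines.

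Families differed in how uniform their line differences were. In the miR-181 family, 0 of 8 tested names were called higher and 7 lower, with a median of −2.46, beside 25.5% higher, 25.0% lower and a median of −0.04 among all 509 names. Its most abundant member miR-181a-5p had 1608 and 1775 CPM in HEK293T ΔdsRBD and 6308 and 7538 CPM in HEK293T WT libraries, with 4951 and 5176 CPM in HCT116 ΔdsRBD and 6113 and 4443 CPM in HCT116 WT libraries. It was below WT in HEK293T and overlapped with WT in HCT116, with a line difference of −1.97 ± 0.25 (adjusted p = 0.000143). miR-181b-5p was close to it at −2.0032 ± 0.26 (adjusted p = 0.000143). The 8th name, miR-181c-3p, had −2.08 ± 1.13 and did not pass.

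All 4 tested names of the miR-221 and miR-222 family were called lower, with a median of −1.43, and 3 of 4 with either spike-in scaling. For this and the next 2 families, the shares of all 509 names were 25.5% higher and 25.0% lower. In the miR-26 family, whose members repress EZH2, 3 of 5 names were called lower and 0 higher, with a median of −1.48. miR-26b-5p had 664 and 619.6 CPM in HEK293T ΔdsRBD, 11919.6 and 17975 in HEK293T WT, 1599 and 1542 in HCT116 ΔdsRBD and 4886 and 5486 CPM in HCT116 WT libraries. It was lower with the deletion in both lines, with a line difference of −2.82 ± 0.27 (adjusted p = 2.99e-05), and miR-26a-5p had −1.72 ± 0.19 (adjusted p = 7.8e-05). In the miR-148 and miR-152 family, 4 of 5 names were called lower and 0 higher, with a median of −1.20. Of its abundant strands, miR-148a-3p had −1.07 ± 0.19, lost with both spike-in scalings, miR-148b-3p had −1.20 ± 0.22, lost with spike-in totals, and miR-152-3p had −0.66 ± 0.31 and was not called (adjusted p = 0.00128, 0.00129 and 0.119).

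In the miR-30 family, 6 of 11 names were called lower (25.0% of all 509 names) and 0 higher (25.5% of all), with a median of −0.69. With either spike-in scaling, 4 were lower. miR-30c-5p had −0.68 ± 0.18 and miR-30d-5p −0.73 ± 0.18 (adjusted p = 0.0102 and 0.00775), and neither was called with the spike-in scalings or without HCT116 ΔdsRBD replicate 1. miR-30e-5p did not pass, at 0.16 ± 0.18 (interval −0.24 to 0.57). The miR-378 family had 2 of 4 names lower and 0 higher, with a median of −0.78. In the miR-200 family, markers of epithelial cells, 0 of 4 names were called (an unadjusted p under 0.05 in 2), and miR-200a-3p had no read in either HEK293T ΔdsRBD library.

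The miR-548 family is a large primate family of transposon origin. It had 7 of 15 names called higher (25.5% of all 509 names) and 0 lower (25.0% of all), with a median of 1.08. With library totals, 5 were higher and 2 lower. miR-548a-3p had 417 and 398 CPM in HEK293T ΔdsRBD, 57.7 and 46.9 in HEK293T WT, 35.2 and 62.1 in HCT116 ΔdsRBD and 35.4 and 36.1 CPM in HCT116 WT libraries. It was high in HEK293T ΔdsRBD alone, with a line difference of 2.48 ± 0.35 (adjusted p = 0.000258). miR-548b-3p had 1.32 ± 0.25 (adjusted p = 0.0016) and its partner miR-548b-5p did not pass, at −0.04 ± 0.28. Some members of this family share a seed, as miR-548b-5p, miR-548ak, miR-548j-5p and miR-548w do, and names of similar sequence may share reads.

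The CLCN5 cluster on the X chromosome had 8 of 15 names called higher and 3 lower, with a median of 0.94. The shares of all 509 names were 25.5% higher and 25.0% lower, so the count of lower names says nothing particular about the cluster. The 8 higher names were both strands of miR-362, miR-500a and miR-502, with miR-500b-5p and miR-501-3p, at 0.77 to 2.51. The 3 lower names were miR-188-5p at −3.30, miR-532-5p at −2.40 and miR-660-5p at −0.61. The call of miR-660-5p was lost in 12 of the 20 alternatives in which it was tested. miR-500a-5p and miR-500b-5p had the same line difference to 2 decimals and may share reads.

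Other lists held calls in both directions. For these and the lists below, the shares of all 509 names were 25.5% higher and 25.0% lower. A count near those shares says nothing particular about a list. Among the miR-17-92 cluster and its paralogs, 6 of 21 names were called higher and 7 lower, with a median of −0.21 that turned positive with the spike-in scalings. The 6 higher names were strands of miR-18a, miR-19a and miR-19b, at 1.37 to 2.20. Of the 7 lower names, 6 were the strands of miR-106b, miR-93 and miR-25, at −4.88 to −0.93, and the other was miR-92a-1-5p at −1.47. miR-25-5p had 729 and 763 CPM in HEK293T ΔdsRBD and 585 and 713 CPM in HEK293T WT libraries, with 736 and 673 CPM in HCT116 ΔdsRBD and 91.2 and 80.7 CPM in HCT116 WT libraries. It overlapped between the HEK293T groups and was far above WT in HCT116 ΔdsRBD, with a line difference of −2.82 ± 0.24 (adjusted p = 1.68e-05).

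In the let-7 family, whose members repress LIN28 and HMGA2, 1 of 13 names was called higher and 4 lower, with a median of −0.21 that turned positive with the spike-in scalings. let-7d-5p was higher at 2.50 ± 0.25 (adjusted p = 3.79e-05). let-7a-5p had −1.10 ± 0.30 (adjusted p = 0.0125), which was lost with the spike-in scalings and without HEK293T ΔdsRBD replicate 2. let-7i-5p did not pass, at 0.01 ± 0.25 (interval −0.54 to 0.56). let-7 members are similar in sequence, and their names may share reads.

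The miR-15 and miR-16 family had 4 of 13 names higher and 5 lower (median −0.45), the miR-10, miR-99 and miR-125 family 3 of 10 higher and 3 lower (median −0.09, positive with upper-quartile and spike-in scaling), and the miR-130, miR-301 and miR-454 family 2 of 8 higher and 2 lower (median 0.01, negative with library totals). In the miR-183 cluster of sensory organs, 1 of 6 names was higher and 2 lower. miR-96-5p had 1048 and 989.9 CPM in HEK293T ΔdsRBD, 691 and 530.1 in HEK293T WT, 984 and 1228 in HCT116 ΔdsRBD and 1997 and 2278 CPM in HCT116 WT libraries. It was above WT in HEK293T and below WT in HCT116, and on the spike-in scale below WT in both, with a line difference of 1.69 ± 0.26 (adjusted p = 0.000494). miR-182-5p had 855 and 867 CPM in HEK293T ΔdsRBD, 5737 and 8045 in HEK293T WT, 3351 and 3258 in HCT116 ΔdsRBD and 4928 and 5081 CPM in HCT116 WT libraries. It was below WT in both lines and further in HEK293T, with a line difference of −2.40 ± 0.24 (adjusted p = 3.79e-05). miR-183-5p had −0.97 ± 0.28 (adjusted p = 0.0157), which was lost with the spike-in scalings and without HEK293T ΔdsRBD replicate 1.

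In the miR-29 family, 3 of 7 names were higher and 2 lower. miR-29b-3p had 75.3 and 74.4 CPM in HEK293T ΔdsRBD, 909 and 1023 in HEK293T WT, 459 and 621 in HCT116 ΔdsRBD and 15439.7 and 21382 CPM in HCT116 WT libraries. It was far below WT in both lines and further in HCT116, with a line difference of 1.41 ± 0.29 (adjusted p = 0.00285), while miR-29a-3p did not pass at −0.47 ± 0.30 (interval −1.13 to 0.19). The miR-193 and miR-365 group had 4 of 8 names higher and 2 lower, with a median of 0.77, and 1 higher and 2 lower with library totals. The mature 3p strands of miR-365a and miR-365b cannot be separated, so its names are not all independent. Of 4 mirtron names, which are spliced introns that skip DROSHA, 2 were higher and 0 lower. Of 5 names of hairpins known to form without DROSHA, 1 was higher and 0 lower, namely miR-484 at 0.84 ± 0.30 (adjusted p = 0.034), which was lost with library totals and without any 1 of 5 libraries. None of the 19 names listed from the imprinted chromosome 14q32 cluster had enough reads to be tested.

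**Figure D3:**
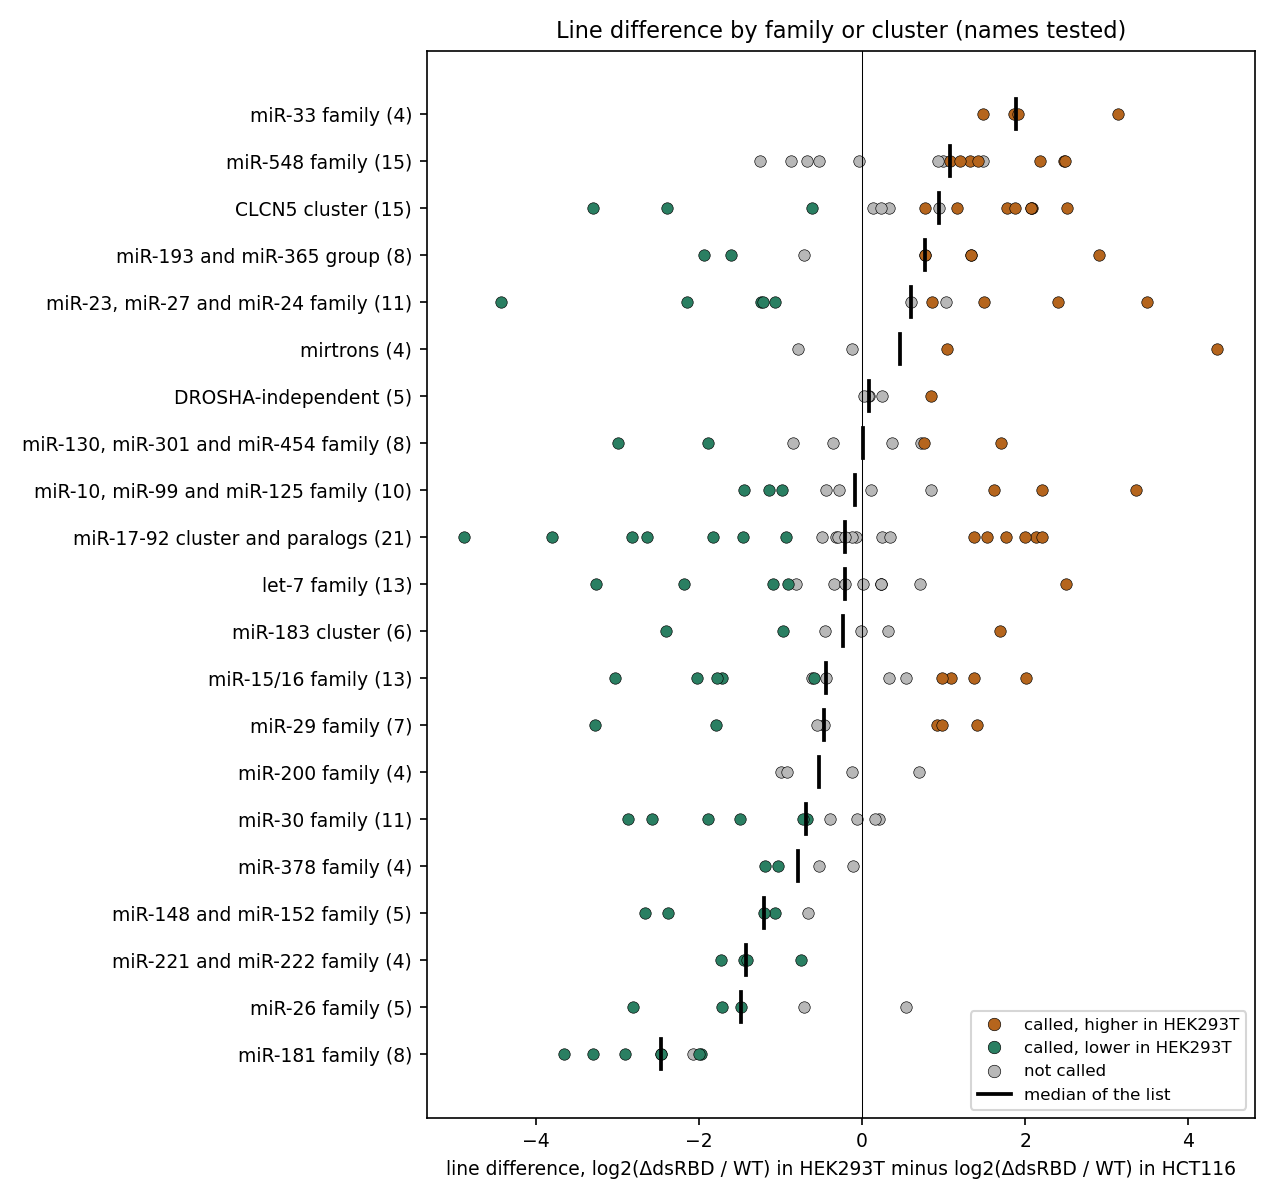
Line difference (horizontal axis, log2) of every tested name in 21 families or clusters, ordered by the median of the list, which is the black bar, with the number of names tested in brackets. The miR-33 family is highest at a median of 1.89, with all 4 names called higher, and the miR-181 family lowest at −2.46, with 7 of 8 called lower.

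Calls were also compared among names that share a seed or a cluster. Of the 509 names, 442 matched a mature sequence in RefSeq, and 50 seeds were shared by 2 or more tested names, 128 names in all. In 21 of these seeds, 2 or more names were called in 1 direction and none in the other, as for miR-27a-3p with miR-27b-3p and for the 4 miR-181 5p strands. Of all 509 names, 25.5% were called higher and 25.0% lower. The 21 include pairs that may share reads, so that their agreement is not independent. Examples are miR-365a-3p with miR-365b-3p, both at 1.33, and miR-199a-3p with miR-199b-3p, both at 1.19. In 4 seeds, names were called in both directions. These were the let-7 seed, the seed of miR-15a-5p and miR-15b-5p, that of miR-34a-5p at −1.83 and miR-449b-5p at 2.10, and that of miR-99b-5p at −1.14 and miR-99a-5p at 2.20. Clusters were formed only from names with 1 locus in RefSeq. Names made at several loci, such as miR-16-5p, miR-19b-3p, miR-24-3p and miR-29b-3p, were left out. The hairpins of miR-93 and miR-183 were not in the clusters either. Among 27 clusters of such hairpins within 10 kb of each other, 105 tested names were held. Of these clusters, 9 had calls in both directions, 5 had calls higher only, 10 had calls lower only and 3 had none. Of the 16 clusters with at least 2 calls among these names, 9 were called both ways and 7 in 1 direction. The names left out could change these counts. MIR15A with MIR16-1 had 3 of 3 names lower, and its counterpart MIR15B with MIR16-2 had 2 of 3 higher. miR-16-5p, which is made at both clusters and was called lower at −0.60, is not among these names.

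Line differences were also counted by strand of the hairpin. Of 200 names of 3p strands, 66 were called higher (33.0%) and 36 lower (18.0%), with a median of 0.37. Of 223 names of 5p strands, 46 were called higher (20.6%) and 80 lower (35.9%), with a median of −0.41. Among all 509 names the shares were 25.5% and 25.0%. The scaling moves both medians together. With library totals they were −0.05 for 3p and −0.80 for 5p names, and with spike-in size factors 0.82 and 0.01, so 3p names were above 5p names each time. The balance of calls turned with them, to 46 higher and 62 lower 3p names with library totals, and to 60 higher and 55 lower 5p names with spike-in size factors. The 86 names without a strand had a median of 0.02, with 18 higher and 11 lower. The GC content of the mature RNA had a Pearson r of 0.064 and a Spearman rho of 0.054 with the line difference across 442 names, which is a description and no finding.

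Both strands were tested for 146 hairpins. Both were called in 52, of which 20 had both higher, 21 had both lower and 11 had opposite calls. In 10 of the 11, the 5p strand was lower and the 3p strand higher, namely miR-9, miR-22, miR-23a, miR-27a, miR-27b, miR-153, miR-199b, miR-342, miR-361 and miR-365b. The exception was miR-185. Among all tested 5p names 35.9% were lower and 20.6% higher, and among all 3p names 33.0% were higher and 18.0% lower. The 10 hairpins go the way of these strand shares, which move with the scaling. Whether they go beyond them was not tested. The line differences of the strands correlated at a Pearson r of 0.454 across the 146 hairpins and had the same sign in 60.3%.

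**Figure D4:**
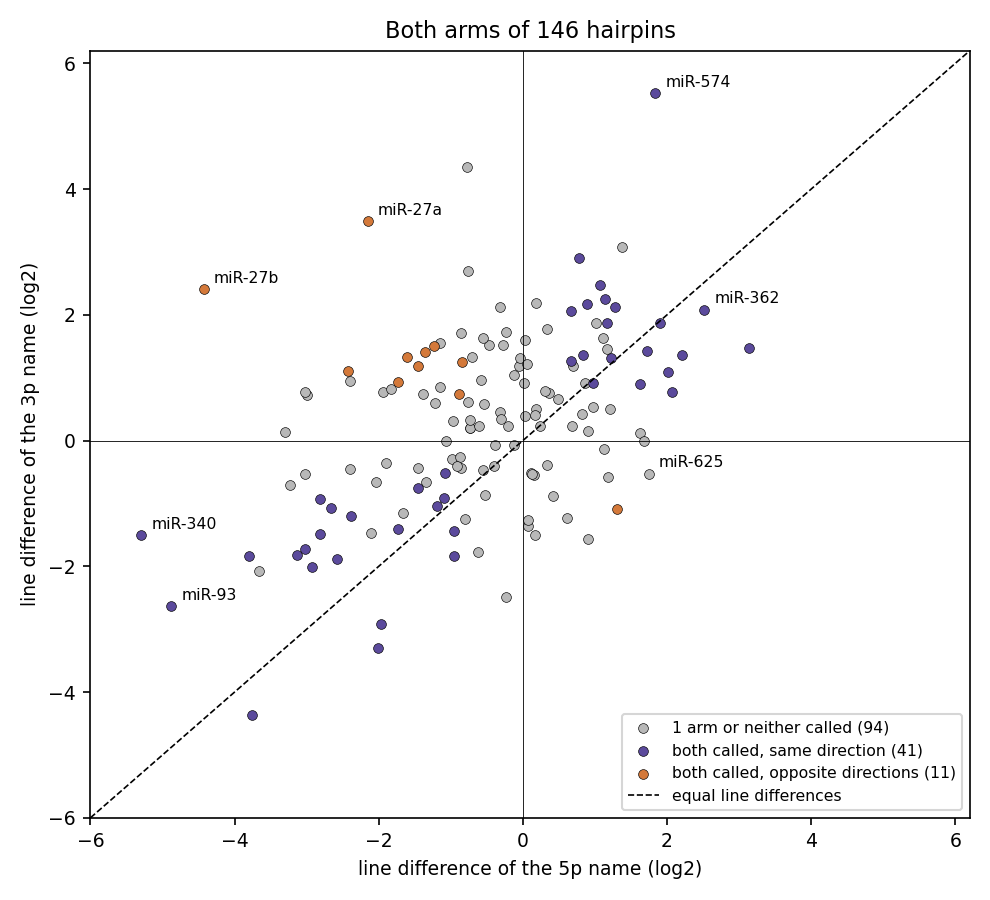
Line difference of the 3p name (vertical axis, log2) against that of the 5p name (horizontal axis, log2), 1 point per hairpin for the 146 hairpins with both strands tested, coloured by whether the calls of the strands had the same or opposite direction. The 11 hairpins with opposite calls include miR-27a at 3.49 for its 3p and −2.15 for its 5p name, and miR-27b at 2.40 and −4.43.

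Arm use, the reads of the 3p strand relative to the 5p strand of the same hairpin, does not depend on library scaling. Its line difference was tested in 150 hairpins as the term of arm, form and line in edgeR, and was called in 76 (50.7%), with 56 higher in HEK293T (37.3%) and 20 lower (13.3%). The median over the 150 was 0.84, with median arm effects of the deletion of −0.20 in HEK293T and −0.68 in HCT116. The directions within a line that follow are the signs of the fitted arm effects, however small, without a call within the line. Of the 56 higher, 26 had a 3p share up with the deletion in HEK293T and down in HCT116, 17 had it down in both lines and 13 up in both. Of the 20 lower, 8 were down in HEK293T and up in HCT116, 8 down in both and 4 up in both.

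The hairpins of miR-27b and miR-27a had the largest line differences in arm use among abundant hairpins. They are printed here from RefSeq (GRCh38.p14), with the 5p and then the 3p strand in capitals, because the strands' shares parted between the lines.
MIR27B: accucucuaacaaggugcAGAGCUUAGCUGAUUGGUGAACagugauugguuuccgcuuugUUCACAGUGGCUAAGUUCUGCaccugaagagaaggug
MIR27A: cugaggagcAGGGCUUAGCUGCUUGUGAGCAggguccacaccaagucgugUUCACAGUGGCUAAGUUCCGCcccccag

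MIR27B lies on the plus strand of chromosome 9 from 95085445 to 95085541, in an intron of C9orf3, and MIR27A on the minus strand of chromosome 19 from 13836440 to 13836517, in an exon of the antisense transcript AC020916.1 (hosts from GENCODE 29). The 3p share of miR-27b was 98.4% and 99.4% in HEK293T ΔdsRBD and 96.9% and 96.0% in HEK293T WT libraries, with 56.7% and 62.2% in HCT116 ΔdsRBD and 98.6% and 98.1% in HCT116 WT libraries. The share was high in both HEK293T groups and in HCT116 WT, and only in HCT116 ΔdsRBD was it close to even. The line difference in arm use was 6.88 ± 0.57 (adjusted p = 3.63e-09), on 502 and 637 reads in HEK293T ΔdsRBD and 277 and 465 in HCT116 ΔdsRBD libraries. The 3p share of miR-27a was 98.9% and 98.8% in HEK293T ΔdsRBD and 98.2% and 96.9% in HEK293T WT libraries, with 66.1% and 68.9% in HCT116 ΔdsRBD and 98.2% and 98.0% in HCT116 WT libraries. The pattern was the same, with a line difference of 5.67 ± 0.41 (adjusted p = 3.63e-09) on at least 1379 reads per library.

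Strand by strand, the 5p strand of miR-27b had 6.77 and 3.004 CPM in HEK293T ΔdsRBD, 154 and 179 in HEK293T WT, 106 and 98.5 in HCT116 ΔdsRBD and 124 and 155 CPM in HCT116 WT libraries. It was lower in HEK293T ΔdsRBD than in HEK293T WT, on 8 and 4 reads, and was not called in HCT116, with a line difference of −4.43 ± 0.47 (adjusted p = 1.68e-05). miR-27a-5p had 12.7 and 14.3 CPM in HEK293T ΔdsRBD, 26.4 and 35.5 in HEK293T WT, 779 and 813 in HCT116 ΔdsRBD and 386 and 407 CPM in HCT116 WT libraries. It was below WT in HEK293T and above WT in HCT116, and on the spike-in scale below WT in both, with a line difference of −2.15 ± 0.31 (adjusted p = 0.000229). The 3p strands of its cluster neighbours were called higher too, with 1.4996 ± 0.28 for miR-23a-3p and 0.86 ± 0.19 for miR-24-3p (adjusted p = 0.0015 and 0.0038). The call of miR-24-3p, which is also made on chromosome 9, was lost with library totals. The 5p strands were called lower, with −1.24 ± 0.39 for miR-23a-5p and −1.07 ± 0.36 for miR-24-2-5p (adjusted p = 0.0199 and 0.0208). Over all strands of miR-23, miR-24 and miR-27, 4 of 11 names were higher and 5 lower, against 6 higher and 2 lower with either spike-in scaling.

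Another 2 hairpins had large positive differences on fewer reads. The 3p share of miR-301a was 86.4% and 93.3% in HEK293T ΔdsRBD and 92.6% and 89.7% in HEK293T WT libraries, with 47.0% and 53.4% in HCT116 ΔdsRBD and 95.7% and 96.5% in HCT116 WT libraries. It was lower in HCT116 ΔdsRBD alone, with a line difference of 3.79 ± 0.86 (adjusted p = 0.000157), but the HEK293T ΔdsRBD libraries held 22 and 15 reads of it. For miR-331 the line difference was 3.78 ± 0.73 (adjusted p = 0.0011) on 12 and 30 reads in HEK293T ΔdsRBD, and it was not called without replicate 2 of that group (2.63, adjusted p = 0.391).

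Negative line differences in arm use were led by miR-32, miR-185, miR-625 and miR-33b. The hairpin of miR-625, in an intron of FUT8 on chromosome 14, is printed here with both strands in capitals because both were abundant in every group.
MIR625: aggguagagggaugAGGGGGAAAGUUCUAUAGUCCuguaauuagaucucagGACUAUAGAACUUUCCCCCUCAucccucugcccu

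The 3p share of miR-625 was 35.7% and 36.2% in HEK293T ΔdsRBD and 67.9% and 74.4% in HEK293T WT libraries, with 34.9% and 39.4% in HCT116 ΔdsRBD and 35.1% and 35.9% in HCT116 WT libraries. The HEK293T WT libraries stood above the other 6, which lay close together, and the line difference was −2.25 ± 0.34 (adjusted p = 6.03e-05). By strand, miR-625-5p had 4323 and 4621 CPM in HEK293T ΔdsRBD, 725 and 795 in HEK293T WT, 681 and 592 in HCT116 ΔdsRBD and 375 and 349.7 CPM in HCT116 WT libraries. It was above WT in both lines and further in HEK293T, though below WT in HCT116 on the spike-in scale, with a line difference of 1.75 ± 0.21 (adjusted p = 0.000111), while miR-625-3p did not pass at −0.53 ± 0.28.

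The 3p share of miR-32 was 1.502% and 2.41% in HEK293T ΔdsRBD and 7.63% and 13.1% in HEK293T WT libraries, with 4.57% and 2.73% in HCT116 ΔdsRBD and 3.37% and 3.48% in HCT116 WT libraries. It was lower with the deletion in HEK293T and overlapped in HCT116, with a line difference of −2.47 ± 0.50 (adjusted p = 0.00066). The 3p share of miR-185 was 5.41% and 9.46% in HEK293T ΔdsRBD and 4.37% and 4.33% in HEK293T WT libraries, with 33.3% and 31.1% in HCT116 ΔdsRBD and 5.24% and 3.99% in HCT116 WT libraries. It was high in HCT116 ΔdsRBD alone, with a line difference of −2.41 ± 0.48 (adjusted p = 0.000409) on 185 to 331 reads in the ΔdsRBD libraries. For miR-33b the line difference was −1.76 ± 0.54 (adjusted p = 0.0138), which was lost without HEK293T ΔdsRBD replicate 1, HEK293T WT replicate 2 or HCT116 ΔdsRBD replicate 1.

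**Figure D5:**
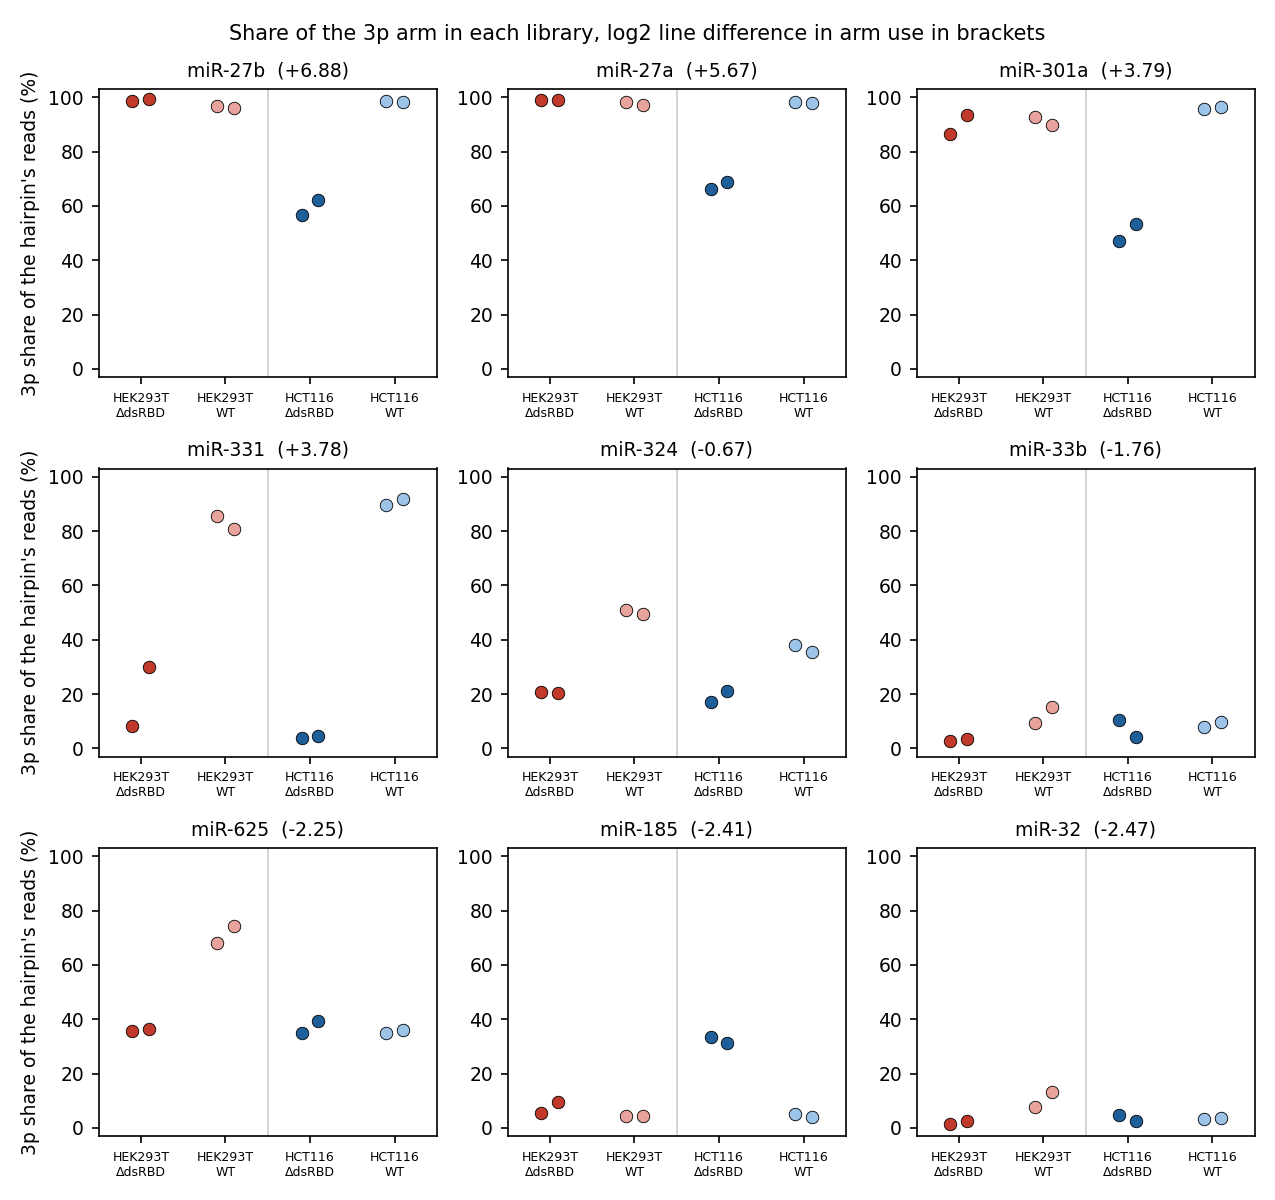
Share of the 3p strand among the reads of 9 hairpins in each of the 8 libraries (vertical axis, percent), 1 point per library, for HEK293T ΔdsRBD, HEK293T WT, HCT116 ΔdsRBD and HCT116 WT. For miR-27b the HCT116 ΔdsRBD points lie at 56.7% and 62.2%, below the other 6, and for miR-625 the HEK293T WT points lie at 67.9% and 74.4%, above the other 6.

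miR-324, known for a choice between DICER cut sites that sets which strand is kept, did not pass the test of arm use. Its 3p share was 20.7% and 20.2% in HEK293T ΔdsRBD and 50.9% and 49.4% in HEK293T WT libraries, with 17.1% and 21.2% in HCT116 ΔdsRBD and 38.1% and 35.3% in HCT116 WT libraries. The share was lower with the deletion in both lines, and the line difference was −0.67 ± 0.35 (adjusted p = 0.119). As single strands, miR-324-5p was called at 1.21 ± 0.24 (adjusted p = 0.00199) and miR-324-3p was not, at 0.51 ± 0.31 (interval −0.19 to 1.20). miR-451a, which is cut by AGO2 and does not need DICER, had 113 and 126 CPM in HEK293T ΔdsRBD, 31.6 and 29.3 in HEK293T WT, 132 and 209 in HCT116 ΔdsRBD and 92.0 and 85.9 CPM in HCT116 WT libraries. ΔdsRBD was above WT in both lines, though below WT in HCT116 on the spike-in scale, and its line difference of 1.00 ± 0.33 (adjusted p = 0.0255) was lost with library totals and without any 1 of 4 libraries.

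The tested libraries held 824987 to 4498886 miRNA reads, with the ΔdsRBD libraries (824987 to 1353117) shallower than the WT libraries (2791656 to 4498886), and spike-ins made up 0.272% to 3.54% of reads. A name without a read could still stand at up to 3 reads, which corresponded to 2.22 to 3.64 CPM in ΔdsRBD and 0.668 to 1.08 CPM in WT libraries, for counting error only. Of 6 miRNAs typical of intestinal epithelium, the summed level, scaled to library totals alone, was 8380 to 8719 CPM in HEK293T ΔdsRBD, 7537 to 8192 CPM in HEK293T WT, 38992 to 40989.8 CPM in HCT116 ΔdsRBD and 51429 to 54498 CPM in HCT116 WT libraries. Most of it was miR-31-5p. The intestinal miR-192-5p, miR-194-5p and miR-215-5p had higher means in both HEK293T groups than in either HCT116 group, and the epithelial marker miR-200c-3p was at 19.9 to 67.6 CPM in the 4 groups. The listed miR-141-3p was at 1.29 CPM in HEK293T ΔdsRBD, 23.2 in HEK293T WT, 3.67 in HCT116 ΔdsRBD and 61.0 in HCT116 WT. The epithelial miR-200b-3p and miR-200a-3p, which are not among the 6, were higher in HCT116. Their TMM-scaled means were 5.33 CPM in HEK293T and 1695 CPM in HCT116 for miR-200b-3p, and 3.90 and 1338 CPM for miR-200a-3p. Of 11 markers of other tissues, 10 were listed for both lines, at a summed 3537 to 3727 CPM in HEK293T ΔdsRBD, 4208 to 4750 CPM in HEK293T WT, 2286 to 2323 CPM in HCT116 ΔdsRBD and 3016 to 3018 CPM in HCT116 WT libraries. Most of this was miR-9-5p or miR-126-3p. In HCT116 WT the mesenchymal marker miR-145-5p was also at a mean of 837 CPM and the blood marker miR-142-3p at 352 CPM. The muscle marker miR-1-3p was at 0 in HCT116 ΔdsRBD, and the part of these markers in the results was not tested.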

How the data were processed

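Small RNA reads of 12 AQ-seq libraries were deposited by the authors as raw read counts per miRNA name and per spike-in, 1 table for each library. The submitters' processing notes name cutadapt, BWA and bedtools and the builds hg38 and mm10, with no versions. How reads that match several names were handled is not stated either, and near-identical names (miR-365a-3p and miR-365b-3p, miR-500a-5p and miR-500b-5p, let-7 members) may share reads.

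From the counts, human names listed for both lines were kept, and a name was tested if it passed filterByExpr (minimum count 10) in each line. The 8 ΔdsRBD and WT libraries were fitted together with edgeR 4.0.16 (R 4.3.3, limma 3.58.1): TMM factors, 4 group means, glmQLFit, and a quasi-likelihood test of the interaction with Benjamini-Hochberg adjustment over the names tested and a threshold of 0.05. Errors are SE on the log2 scale, intervals 95%, and CPM values use TMM-scaled totals. Log2 ratios were shrunk with a prior count of 2, while SE and p-values come from the fit without it. Where a group has few reads, the ratio, SE, interval and p-value therefore need not match. Arm use was tested per hairpin with the library as a block, on at least 10 reads per arm. Spike-ins were scaled by their own size factors. The calling steps were also run on counts simulated from the same fit, with a common dispersion for all names. Such counts lack the name-to-name differences in spread and any effect of library preparation, so that run does not check the calls made here. DESeq2 1.42.0 gave an alternative, as did other scalings, filters and leaving out each library. Mature and hairpin sequences are from RefSeq, and hosts from GENCODE 29. Python 3.11.15, pandas 2.3.3 and matplotlib 3.10.9 made tables and plots.

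The members and lists were chosen with earlier results of these data known. Names described singly were, among names with a mean of at least 100 CPM in each line, the 8 most positive and 8 most negative called line differences, 4 more with opposite calls in the lines, 4 alike between the lines with the largest deletion effect, then the 6 most abundant names, 3 per list, up to 4 hairpins in each direction of arm use, and miR-324, miR-451a, miR-340 and miR-224. Relatives and partner strands of these were added for comparison after their values were seen. Replicates of a group differed beyond sampling noise (chi-square per degree of freedom 28.0 to 109.5). Same-numbered libraries did not deviate together, with correlations of −0.078 in HEK293T and 0.020 in HCT116 over 267 names, so the numbers were not taken as pairs. The AA libraries entered only 1 alternative.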

Additional observations from a re-analysis of the deposited data

Results flagged for a closer look

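Each result here is a deletion effect that differed between the lines by the test of that difference (edgeR's quasi-likelihood test with Benjamini-Hochberg adjustment), given as the HEK293T log2 ratio minus the HCT116 log2 ratio. They were chosen by the rule for names described singly, so their number says nothing about how common such differences are. Of all 509 names, 50.5% were called.

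Opposite calls in the lines, with ΔdsRBD above WT in HEK293T and below in HCT116, were made for miR-125b-5p (3.36), miR-18a-3p (2.13), miR-96-5p (1.69) and miR-23a-3p (1.4996). The reverse was called for miR-181a-3p (−2.91), miR-148a-5p (−2.67), miR-450b-5p (−2.50), miR-181a-2-3p (−2.46), miR-532-5p (−2.40) and miR-10b-5p (−1.45). These directions are on the TMM scale: with spike-in size factors miR-125b-5p kept opposite signs and the other 9 were below WT in both lines. The directions within a line given below are on the TMM scale as well.

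ΔdsRBD was called above WT in HEK293T, with no call in HCT116, for miR-33b-5p (3.13), miR-193a-3p (2.91), miR-362-5p (2.51), miR-548a-3p (2.48), miR-19a-5p (2.20), miR-15b-5p (2.01), miR-19b-3p (1.76), miR-548b-3p (1.32) and miR-130b-3p (0.76). It was called below WT in HEK293T, with no call in HCT116, for miR-340-5p (−5.30), miR-21-5p (−3.75), miR-15a-5p (−3.03), miR-181b-5p (−2.0032), miR-181a-5p (−1.97), let-7a-5p (−1.10) and miR-183-5p (−0.97). A call in HCT116 and none in HEK293T stood behind miR-27a-3p (3.49), miR-324-5p (1.21), miR-10a-5p (−0.98), miR-30d-5p (−0.73) and miR-660-5p (−0.61).

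Below WT in both lines and further in HEK293T were miR-93-5p (−4.88), miR-224-5p (−4.12), miR-106b-5p (−3.80), miR-181c-5p (−3.66), miR-450a-5p (−3.27), let-7e-5p (−3.26), miR-26b-5p (−2.82), miR-182-5p (−2.40), miR-26a-5p (−1.72), miR-340-3p (−1.51), miR-26b-3p (−1.48), miR-222-3p (−1.41), miR-148b-3p (−1.20), miR-148a-3p (−1.07), miR-30c-5p (−0.68) and miR-16-5p (−0.60). Below WT in both and further in HCT116 were miR-27b-3p (2.40), miR-29b-3p (1.41), miR-365b-3p (1.33), miR-24-3p (0.86) and miR-484 (0.84). miR-451a was above WT in both and further in HEK293T (1.00).

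In arm use, the line difference of the 3p over the 5p strand was called for miR-27b (6.88), miR-27a (5.67), miR-301a (3.79), miR-331 (3.78), miR-32 (−2.47), miR-185 (−2.41), miR-625 (−2.25) and miR-33b (−1.76). Those of miR-301a and miR-331 rest on under 100 reads of the hairpin in each HEK293T ΔdsRBD library.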

How the results depend on the processing

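No call turned round under any alternative. The balance of calls moved with scaling: 50.6% of calls were higher with TMM, 32.6% with library totals, 65.1% with spike-in size factors and 66.1% with spike-in totals, and 214 to 217 of the 257 calls were kept under these 3. With glmTreat, which tests against the largest spike-in value in place of 0, 4 names were called higher and 22 lower, so that 15.4% of calls were higher. DESeq2's Wald test called 113 higher and 115 lower and kept 224 of the 257. With no filter on low counts, 1491 names were tested and the r between the lines' effects was 0.605. Leaving out 1 library gave 110 to 128 names higher and 107 to 126 lower. Over the same leave-outs, hairpins with lower 3p use numbered 11 (without HEK293T ΔdsRBD replicate 2) to 20, and called spike-ins 0 (without HEK293T ΔdsRBD replicate 1) to 14 (without HEK293T WT replicate 1). With the replicate block, 136 names were higher and 129 lower, and 247 of the 257 calls were kept; for arm use no such fit could be separated, since the library is already a block. A filter of at least 10 reads in each of the 8 libraries, chosen after seeing the data, left 351 names, with 104 higher and 88 lower. Among names and hairpins described singly, a call was kept in 1093 fits and lost in 96. The depth of the HEK293T ΔdsRBD libraries limits the names with under 30 reads there.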
